A study of Homo sapiens with 15 samples.

Results

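Tumor and stromal cells talk to T cells partly through surface proteins of the B7, TNF and nectin families, and the RNA of 10 of these genes was followed in a co-culture of small cell lung cancer (SCLC) cells and fibroblasts. The genes were CD274, PDCD1LG2, CD276 and ICOSLG of the B7 family, TNFSF4, TNFSF9 and CD70 of the TNF ligands, CD40 of the TNF receptors, and PVR and NECTIN2 of the nectins. They were chosen by name, and all 10 were listed in both deposited tables, among 16382 genes in the MRC5 table and 16076 in the H196 table. A filter on low counts kept 9 of the 10 in each table, leaving out CD70 in MRC5 cells and PDCD1LG2 in H196 cells.

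RNA sequencing covered 15 libraries in 5 groups of 3. MRC5, a primary human lung fibroblast line kept in MEM, was grown alone (MRC5_Mo), with the neuroendocrine SCLC line H69 (MRC5_CoH69) or with the non-neuroendocrine SCLC line H196 (MRC5_CoH196). H196, kept in RPMI, gave a mono-culture group (H196_Mo) and a group facing MRC5 cells (H196_Co), and culture lasted about a week with the partner on the other side of a porous transwell membrane. No drug, no gene transfer and no immune cell was part of any group, each line stands for 1 source only, and RNA was measured rather than surface protein. The study's methods call the 3 libraries of a group parallel replicates, without saying whether they came from separate cultures, so the p-values below may measure technical spread alone.

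As background, CD274 (PD-L1) and PDCD1LG2 (PD-L2) both bind the inhibitory receptor PD-1 and are induced by interferons. CD276 (B7-H3) is a B7 relative common on tumors and stroma, and ICOSLG binds the co-stimulatory receptor ICOS. TNFSF4 (OX40 ligand), TNFSF9 (4-1BB ligand) and CD70 bind OX40, 4-1BB and CD27 on T cells, while CD40 is itself a receptor, known from antigen-presenting cells, that responds to CD40 ligand. PVR (CD155) and NECTIN2 (CD112) are adhesion proteins that bind activating CD226 and inhibitory TIGIT.

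The libraries held 16073597 to 19170560 counts each. The fibroblast marker list summed to 14096 to 31035 CPM (counts scaled to library size) in MRC5 libraries and to 20.1 to 24.3 CPM in H196 libraries, and 11 of its 11 genes were detected in MRC5 cells. Neuroendocrine markers summed to at most 1.09 CPM in MRC5 libraries and to 23.9 to 28.4 CPM in H196 libraries, where the non-neuroendocrine list (YAP1, REST, WWTR1, AXL) summed to 651 to 734 CPM. B cell, myeloid and endothelial lists each stayed at or under 1.23 CPM in MRC5 cells and 8.90 CPM in H196 cells. T cell markers summed to 66.8 to 83.0 CPM in MRC5 cells, nearly all from CD4, and to at most 0.608 CPM in H196 cells, while epithelial keratins and their partners summed to 120 to 162 CPM in MRC5 cells and 208 to 285 CPM in H196 cells.

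The positions below are those of the deposited annotation on GRCh38.p13. CD274 (gene 29126) lies at chr9:5450542-5470961 and PDCD1LG2 (gene 80380) at chr9:5457410-5628983, so that their listed spans overlap each other and that of RIC1. CD276 (gene 80381) lies at chr15:73683966-73714518, CD40 (gene 958) at chr20:46118242-46142969, and ICOSLG (gene 23308) at chr21:44216979-44240943. The listed span of TNFSF4 (gene 7292), chr1:173183729-173489407, overlaps that of PRDX6. Chromosome 19 holds TNFSF9 (gene 8744) at chr19:6531026-6535924, CD70 (gene 970) at chr19:6581515-6591150, PVR (gene 5817) at chr19:44643910-44666162, overlapping CEACAM19, and NECTIN2 (gene 5819) at chr19:44846297-44890922. The library kit is not stated to keep strand, so reads from overlapping genes may have been shared. PVR and CD70 had counts that were not whole numbers in 15 of 15 libraries, so some of their reads were divided with other genes or transcripts by the authors' counting.

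Of the members that changed in one direction in a co-culture, TNFSF4 and ICOSLG had a start region in the RefSeq table (GRCh38.p14), and the 250 bases before each start are shown because these genes moved together in MRC5_CoH196 cells. The third, CD40, is named only. Capitals mark matches on either strand to any of 5 motifs: ACGTG and GCGTG, the cores of the hypoxia response element, a pair of GAAA repeats with 2 free bases between them as in interferon response elements, TTCNNNGAA of STAT sites, and GGGA, a free base and TTTCC as in NF-kB sites.
TNFSF4, chr1:173205533-173205782, minus strand: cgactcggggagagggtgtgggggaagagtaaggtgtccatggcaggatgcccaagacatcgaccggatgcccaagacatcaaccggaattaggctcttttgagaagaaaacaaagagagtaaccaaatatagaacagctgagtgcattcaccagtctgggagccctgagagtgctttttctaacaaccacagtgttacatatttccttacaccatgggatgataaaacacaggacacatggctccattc
ICOSLG, chr21:44240944-44241193, minus strand: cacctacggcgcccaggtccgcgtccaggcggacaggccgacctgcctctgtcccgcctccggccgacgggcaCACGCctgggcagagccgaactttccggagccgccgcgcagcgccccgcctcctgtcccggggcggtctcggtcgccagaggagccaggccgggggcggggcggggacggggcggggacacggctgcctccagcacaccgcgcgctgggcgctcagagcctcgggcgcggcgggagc
The TNFSF4 window lies inside the listed span of the gene, and the deposited annotation lists TNFSF4 on the plus strand where RefSeq has the minus strand, so the printed start is that of RefSeq alone. The sequences differ in composition, with 48.0% G and C before TNFSF4 and 79.2% before ICOSLG. The TNFSF4 window held none of the motifs, and the ICOSLG window held 1, GCGTG read on the opposite strand at base 74. Over 35116 start regions of the same length, 18.5% held ACGTG, 32.2% GCGTG, 3.0% the interferon motif, 6.6% the STAT motif and 0.5% the NF-kB motif.

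The first comparison described which partner held which ligand when the lines grew alone. MRC5_Mo cells carried the nectins, CD276, TNFSF4 and both PD-1 ligands, and H196_Mo cells carried CD40 and CD70, which were nearly absent from MRC5_Mo cells. All 10 members were tested in a joint fit of the 15 libraries, and all 10 differed (edgeR adjusted p under 0.05 and absolute log2 fold change above 0.58), 6 higher in MRC5_Mo and 4 higher in H196_Mo. Of 13585 genes tested in that fit, 61.7% differed by the same limits, 30.2% higher in MRC5_Mo and 31.5% lower, so most genes separated these lines. CD70 and PDCD1LG2 passed the low-count filter of this fit only through the line where they were high, so their calls were near certain beforehand. With at least 10 counts required in every library, 6 members were called, and CD70, PDCD1LG2, TNFSF9 and ICOSLG were not tested. Cell line, medium and deposited table cannot be told apart here.

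The members higher in fibroblasts were led by PDCD1LG2, at 12.4, 14.0 and 14.5 FPKM (fragments scaled by transcript length and library depth) in MRC5_Mo and 0.20, 0.24 and 0.26 FPKM in H196_Mo, a log2 fold change of 6.26 (SE 0.16, edgeR adjusted p = 4.50e-24). TNFSF4 stood at 19.6, 20.04 and 21.8 FPKM in MRC5_Mo and 0.41, 0.61 and 0.76 FPKM in H196_Mo, a log2 fold change of 4.81 (SE 0.10). CD274 reached 5.91, 6.19 and 6.91 FPKM in MRC5_Mo and 0.74, 0.95 and 1.16 FPKM in H196_Mo, a log2 fold change of 4.29 (SE 0.13). None of these ranges overlapped, and PD-L2 RNA was above PD-L1 RNA in every MRC5 library and below it in every H196 library. The log2 ratio of PDCD1LG2 to CD274 FPKM was 1.103 ± 0.23 (SD, n = 3) in MRC5_Mo and -2.01 ± 0.14 (SD, n = 3) in H196_Mo.

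PVR, NECTIN2 and CD276 were present in both lines and differed less. NECTIN2 was the most abundant member in every library, at 97.4 ± 1.501 FPKM (SD, n = 3) in MRC5_Mo, above 94.7% of listed genes, and at 37.4 ± 1.62 FPKM (SD, n = 3) in H196_Mo. PVR averaged 37.9 ± 1.19 FPKM (SD, n = 3) in MRC5_Mo and 6.82 ± 0.27 FPKM (SD, n = 3) in H196_Mo, and CD276 42.0 ± 1.22 and 17.7 ± 1.70 FPKM (SD, n = 3 each). The log2 fold changes were 2.60 for PVR, 1.78 for NECTIN2 and 1.71 for CD276, with SEs of 0.052 to 0.064.

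CD40 and CD70 made the opposite pattern. CD40 was at 29.2, 32.1 and 35.5 FPKM in H196_Mo and at 0.71, 0.72 and 0.75 FPKM in MRC5_Mo, a 32.1-fold lower level in MRC5_Mo (SE of log2 0.13, edgeR adjusted p = 8.67e-24), and CD70 was at 23.1, 26.3 and 27.3 FPKM in H196_Mo and at 0.13, 0.15 and 0.31 FPKM in MRC5_Mo, a log2 difference of -5.66 (SE 0.23). TNFSF9 (-2.21, SE 0.25) and ICOSLG (-3.41, SE 0.32) were also lower in MRC5_Mo, but at low levels: TNFSF9 was at 3.17 ± 0.22 FPKM (SD, n = 3) and ICOSLG at 0.88 ± 0.085 FPKM (SD, n = 3) in H196_Mo. The TNF ligands thus split by line, TNFSF4 in MRC5 cells and CD70 in H196 cells.

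**Figure D1:**
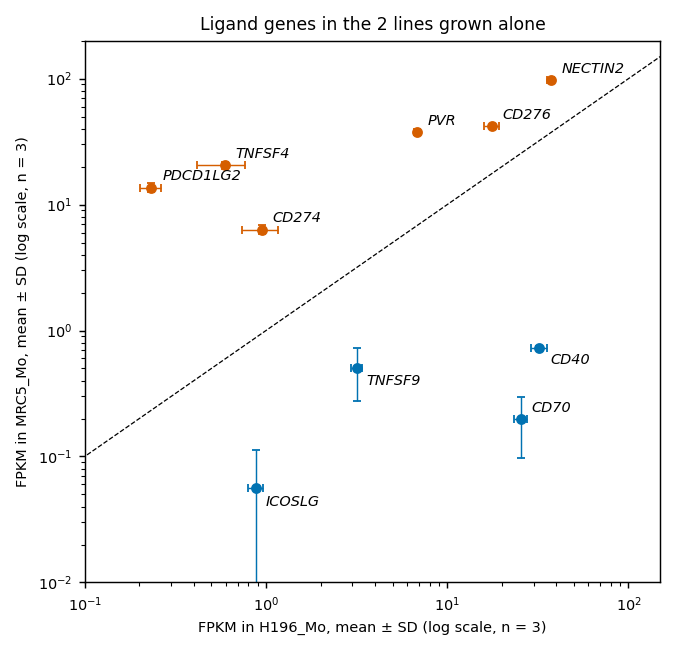
Mean FPKM of each member in MRC5_Mo (y axis) against H196_Mo (x axis), both on log scales, with SD over 3 libraries and a dashed line of equal levels; the lower error bar of ICOSLG runs below the axis. The 6 genes above the line were higher in MRC5_Mo and the 4 below it in H196_Mo, CD40 and CD70 lying farthest below at 0.73 and 0.20 FPKM in MRC5_Mo.

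Summed over the 10 members, FPKM was 219 ± 4.46 in MRC5_Mo, 226 ± 7.25 in MRC5_CoH69, 206 ± 3.39 in MRC5_CoH196, 125 ± 7.14 in H196_Mo and 140 ± 0.70 in H196_Co (SD, n = 3 each). NECTIN2 alone made up 43.9% to 46.2% of that sum in every MRC5 library and 29.2% to 31.1% in every H196 library. CD40 and CD70 ranked next in H196 cells, where CD40 was 23.6% to 26.9% and CD70 19.3% to 22.3% of the sum, and each was under 1% in every MRC5 library. Within MRC5 cells the share of TNFSF4 was 9.34% in MRC5_Mo, 9.19% in MRC5_CoH69 and 14.0% in MRC5_CoH196, while that of CD276 was 19.1%, 18.6% and 14.5%.

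**Figure D2:**
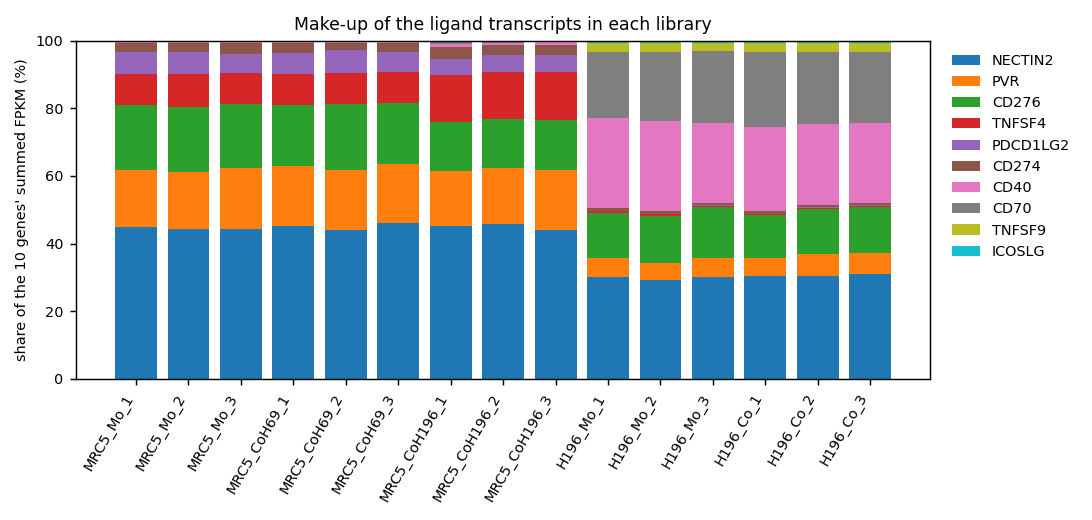
Share of each member in the summed FPKM of the 10 genes (y axis, percent) in each of the 15 libraries (bars). NECTIN2 was the largest part in all 15, CD40 and CD70 filled 19.3% to 26.9% each in H196 libraries only, and the TNFSF4 part was 13.7% to 14.3% in MRC5_CoH196 against 9.05% to 9.71% in MRC5_Mo.

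The second comparison asked how fibroblasts changed beside non-neuroendocrine tumor cells. In MRC5_CoH196 against MRC5_Mo, 3 of 9 tested members rose (TNFSF4, CD40 and ICOSLG) and none fell past the limits, where 17.2% of 12819 genes rose and 31.9% changed in either direction. The share of members called in either direction is near that of genes at large. ICOSLG passed the filter on low counts largely through MRC5_CoH196, where it was high, so its call was not independent of that filter. With at least 10 counts required in every library, ICOSLG was not tested and 2 members were called. At an adjusted p under 0.05 without a fold limit, 8 of 9 members differed, 5 higher and 3 lower, beside 74.3% of all genes, 37.2% higher and 37.1% lower. The median log2 fold change was 0.23 over the 9 members and -0.0030 over all genes tested. Fibroblast markers moved with this contrast, their sum being 25827 to 28752 CPM in MRC5_Mo and 14096 to 14537 CPM in MRC5_CoH196. That fall lay in the collagens, COL3A1 (log2 -2.09), COL1A1 (-1.57) and, under the fold limit, COL1A2 (-0.56), whereas PDGFRB rose (0.67) and the median over the 11 markers was 0.0040. The markers' part in the members' values was not tested. In bulk RNA from MRC5 cells, fewer cells expressing a gene and less of its RNA per cell cannot be told apart.

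TNFSF4 RNA, which encodes the ligand of OX40, rose from 1171, 1213 and 1314 counts in MRC5_Mo to 1663, 1760 and 1820 counts in MRC5_CoH196. Every co-cultured library was above every mono-cultured one, a rise of 1.58-fold (log2 0.66, SE 0.051, edgeR adjusted p = 1.61e-11). Per length, the change was from 20.5 ± 1.147 to 28.7 ± 0.85 FPKM (SD, n = 3 each). On the log2(FPKM + 1) scale the same gene was higher by 0.47 (limma adjusted p = 3.35e-06) and so fell short of the fold limit, on a scale where the median of all genes was -0.13. TNFSF4 also stayed under the fold limit on log2(FPKM + 0.1). PRDX6, whose listed span overlaps TNFSF4, was higher by 0.49 on the log2 scale.

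CD40 RNA, low in MRC5_Mo at 17, 18 and 19 counts, rose to 34, 36 and 48 counts in MRC5_CoH196. The libraries did not overlap, and the fitted change was 2.43-fold (log2 1.28, SE 0.23, edgeR adjusted p = 1.85e-05). The level reached was low beside the tumor line, 1.56 ± 0.29 FPKM (SD, n = 3) against 33.8 ± 0.66 FPKM (SD, n = 3) in H196_Co. On log2(FPKM + 1), where the added 1 is near the gene's own level, the rise was 0.56 (limma adjusted p = 2.70e-05), just under the fold limit. On log2(FPKM + 0.1) CD40 passed both limits.

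ICOSLG counts are the least certain of the 3. The gene had 1.83, 3.52 and 15 counts in MRC5_Mo and 10.6, 20 and 22.4 counts in MRC5_CoH196, so the ranges overlapped through replicate 2 of MRC5_Mo. The fit gave a log2 fold change of 1.48 (SE 0.47, edgeR adjusted p = 0.00643), which ran from 1.05 to 2.66 with 1 library left out, the highest without that replicate. On log2(FPKM + 1), where the added 1 is above the gene's own level, the change was 0.14 (limma adjusted p = 0.0501). On log2(FPKM + 0.1) ICOSLG passed both limits. A further locus on the same chromosome, LOC102723996, shares 277 identical bases with ICOSLG within their 300-base start windows, and 13 of 15 ICOSLG counts were not whole numbers, as when reads are divided between genes. With the counts of both loci summed, an alternative chosen after seeing the data, the values were 4, 5 and 15 in MRC5_Mo, 7, 8 and 9.87 in MRC5_CoH69, and 11, 20 and 22.4 in MRC5_CoH196, and the log2 fold change was 1.29 (SE 0.40, edgeR adjusted p = 0.00573).

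The PD-1 ligands lay on opposite sides of 0 by small amounts, both under the fold limit. PDCD1LG2 was lower, with 497, 568 and 587 counts in MRC5_Mo and 398, 428 and 429 counts in MRC5_CoH196 (log2 -0.24, SE 0.073, edgeR adjusted p = 0.00511), without overlap in counts or FPKM. CD274 stood at 372, 390 and 411 counts in MRC5_Mo and 385, 401 and 450 counts in MRC5_CoH196, a log2 fold change of 0.23 (SE 0.077, edgeR adjusted p = 0.00859) that came to 0.054 on log2(FPKM + 1) (limma adjusted p = 0.621) and to 0.17 without replicate 1 of MRC5_CoH196 (adjusted p = 0.0676). The log2 ratio of PDCD1LG2 to CD274 FPKM was 0.50 to 0.72 in MRC5_CoH196 and 0.84 to 1.24 in MRC5_Mo, so PD-L2 RNA stayed the more abundant in all 6 libraries with a narrower lead in co-culture. RIC1, whose span overlaps both genes, rose by 1.04 on the log2 scale.

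CD276 and PVR were lower, also under the fold limit. CD276 went from 2291, 2344 and 2424 counts to 1624, 1716 and 1735 counts (log2 -0.32, SE 0.049, edgeR adjusted p = 2.54e-06), and by FPKM from 42.0 ± 1.22 to 29.9 ± 0.61 (SD, n = 3 each). PVR went from 2565 to 2751 counts down to 1884 to 2093 counts (log2 -0.24, SE 0.047, edgeR adjusted p = 6.35e-05), yet its FPKM of 33.5 to 37.1 in MRC5_CoH196 overlapped the 36.6 to 39.0 of MRC5_Mo. NECTIN2 had no settled direction: it was 0.12 higher on the log2 scale by counts (SE 0.041, edgeR adjusted p = 0.0133) and 0.075 lower by limma on log2(FPKM + 0.1). The library scaling factors were 0.916 to 0.941 in MRC5_CoH196 and 1.03 to 1.05 in the other MRC5 groups, and their part in the difference between counts and FPKM was not tested.

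TNFSF9 and CD70 gave no call in MRC5_CoH196. TNFSF9 had 9, 10 and 19 counts in MRC5_Mo and 15, 15 and 25 counts in MRC5_CoH196, overlapping ranges with a log2 fold change of 0.69 (SE 0.35, edgeR adjusted p = 0.0788). Without replicate 3 of MRC5_Mo, its highest library, that value was 1.103 (adjusted p = 0.0181). CD70 was too low to test, at 2.73, 6.03 and 7.04 counts in MRC5_Mo, 6.73, 7.01 and 9.95 counts in MRC5_CoH69 and 2.06, 9.11 and 16.4 counts in MRC5_CoH196.

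**Figure D3:**
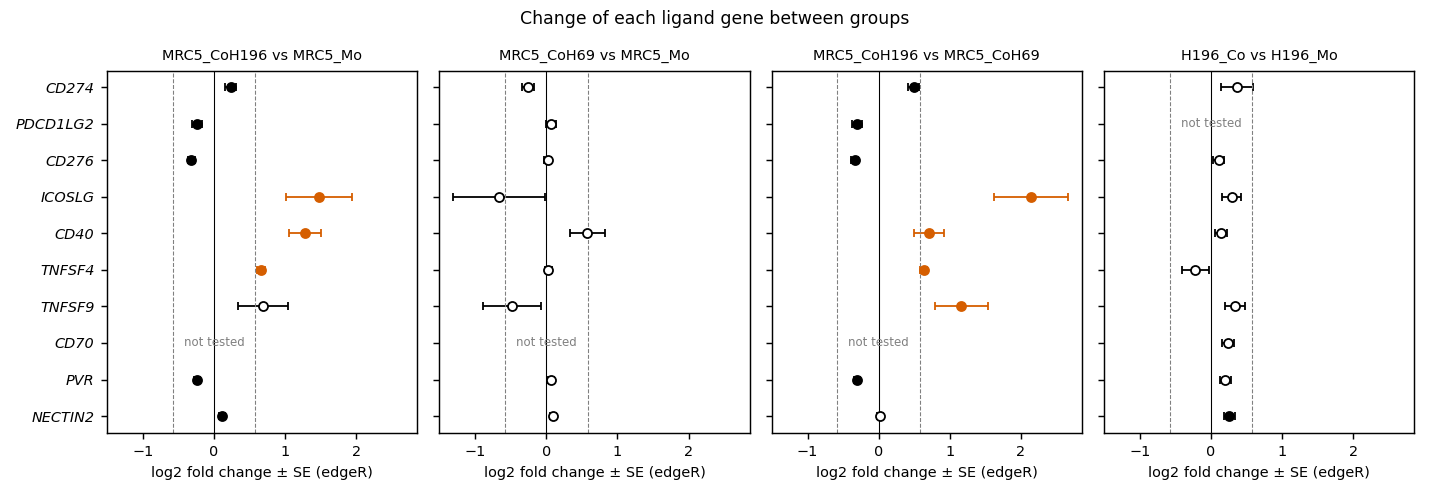
Log2 fold change of each member with its SE (x axis, edgeR) in 4 comparisons (panels); orange points passed both limits, black points the adjusted p alone, open points neither, and dashed lines mark 0.58 in either direction. TNFSF4, CD40 and ICOSLG lie past the limit against both MRC5_Mo and MRC5_CoH69, TNFSF9 against MRC5_CoH69 only, and no member does in H196 cells.

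RNA of H196 marker genes moved with this co-culture. The 73 genes at 20 CPM or more in H196_Mo and under 0.5 CPM in MRC5_Mo summed to 0.361%, 0.882% and 0.992% of their H196_Co level in the MRC5_CoH196 libraries, against 0.1002% to 0.103% in MRC5_Mo, whose low level the choice of genes fixed, and 0.0946% to 0.129% in MRC5_CoH69, which the choice did not use. As a percentage of the H196_Co level of the same gene, the difference between MRC5_CoH196 and MRC5_Mo was 1.41% for CD70, 3.94% for CD40 and 13.5% for ICOSLG. With the counts that such a share would give subtracted, an alternative chosen after seeing the data, the log2 fold change against MRC5_Mo was 0.68 for TNFSF4, 1.17 for CD40 (edgeR adjusted p = 1.23e-04) and 1.44 for ICOSLG (adjusted p = 0.00873), all past both limits. TNFSF4 stood at 0.47 FPKM in H196_Co. The source of the H196 marker RNA, and its part in the CD40 and ICOSLG values beyond this subtraction, was not tested. Among the 3 MRC5_CoH196 libraries, CD70 was lowest in replicate 3, which also had the least marker RNA. Replicate 2, with the most marker RNA, had less CD70 than replicate 1, at 9.11 against 16.4 counts. CD40 was lowest in replicate 2, at 34 counts against 36 in replicate 3.

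**Figure D4:**
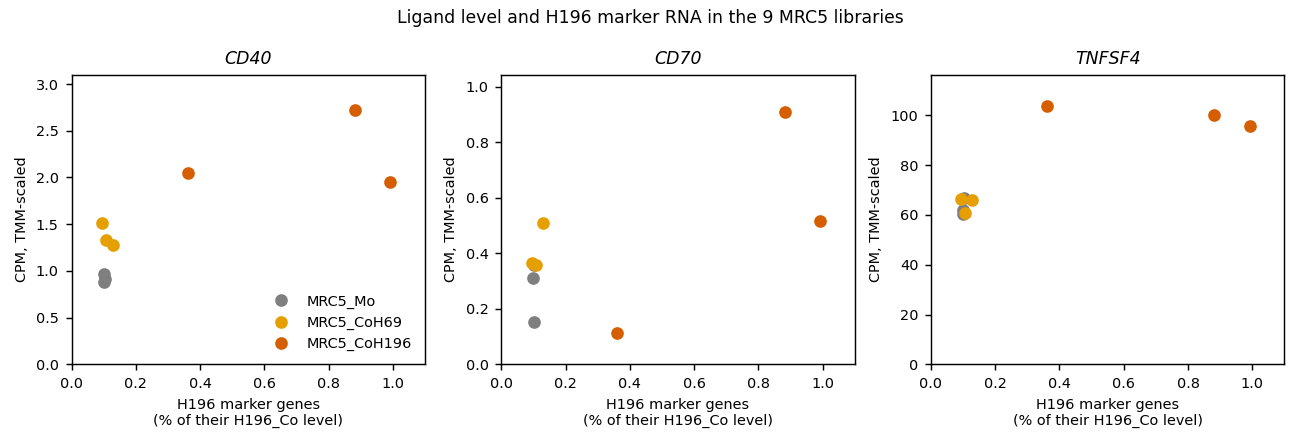
TMM-scaled CPM of CD40, CD70 and TNFSF4 (y axes) against the summed H196 marker RNA (x axes, percent of its H196_Co level) in the 9 MRC5 libraries (points, colored by group). TNFSF4 was highest, at 104 CPM, in the MRC5_CoH196 library with the least H196 marker RNA, where CD70 was lowest at 0.114 CPM. Among the MRC5_CoH196 libraries, CD40 was lowest, at 1.96 CPM, in the library with the most H196 marker RNA.

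Beside neuroendocrine H69 cells, the third comparison, the ligands of MRC5 cells gave no call. In MRC5_CoH69 against MRC5_Mo, 0 of 9 members passed both limits by edgeR, by DESeq2 or by limma on FPKM, where 0.554% of all genes passed in edgeR. The edgeR adjusted p alone also gave 0 members, beside 6.70% of genes, with CD274 close to the threshold. At an unadjusted p under 0.05 in edgeR there were 3 members, beside 20.1% of all genes. They were CD274 (log2 -0.26, adjusted p = 0.0506, and 0.0184 to 0.452 over the alternatives), CD40 (0.57, adjusted p = 0.180) and NECTIN2 (0.093, adjusted p = 0.195). CD40 counts of 25, 26 and 29 in MRC5_CoH69 lay above the 17, 18 and 19 of MRC5_Mo without overlap, and 25.7% of genes did not overlap between these groups. TNFSF4 was level, at 20.7 ± 0.75 FPKM (SD, n = 3) against 20.5 in MRC5_Mo (log2 0.030, SE 0.052).

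Set directly against each other, the co-cultures differed in 4 of 9 members, all higher in MRC5_CoH196, where 15.2% of genes were higher and 28.2% differed in either direction. MRC5_CoH196 enters this contrast and the contrast with MRC5_Mo alike, so their values are not independent. TNFSF4 was higher by 0.63 on the log2 scale (SE 0.051, edgeR adjusted p = 4.58e-11) and, on log2(FPKM + 1), by 0.45, under the fold limit, while PRDX6 was higher by 0.62. CD40 was higher by 0.71 (SE 0.21, adjusted p = 0.00414), but by 0.55 without replicate 1 of MRC5_CoH196 and 0.57 with the H196 share subtracted, both under the fold limit. TNFSF9, the 4-1BB ligand, at 6, 7 and 14 counts in MRC5_CoH69, was higher by 1.16 (SE 0.38, adjusted p = 0.00770), a call that rested on replicate 1 of MRC5_CoH196, without which the value was 0.89 (adjusted p = 0.0715).

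For ICOSLG, at 1.78, 2.90 and 8.20 counts in MRC5_CoH69, the log2 difference of 2.14 (SE 0.52, edgeR adjusted p = 7.08e-04) became 1.22 (SE 0.40, adjusted p = 0.00817) when the near-identical locus was added, since that locus held 1.67 to 6.22 counts in MRC5_CoH69 and at most 0.43 in MRC5_CoH196. Of the other members, CD274 was higher by 0.49 (SE 0.079, adjusted p = 5.32e-06), and by 0.58, past the limit, without replicate 1 of MRC5_CoH69. CD276 (-0.34), PVR (-0.31) and PDCD1LG2 (-0.31) were lower at edgeR adjusted p values of at most 5.65e-04. In all, 8 of 9 members differed by the adjusted p alone, where 72.3% of genes did.

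**Figure D5:**
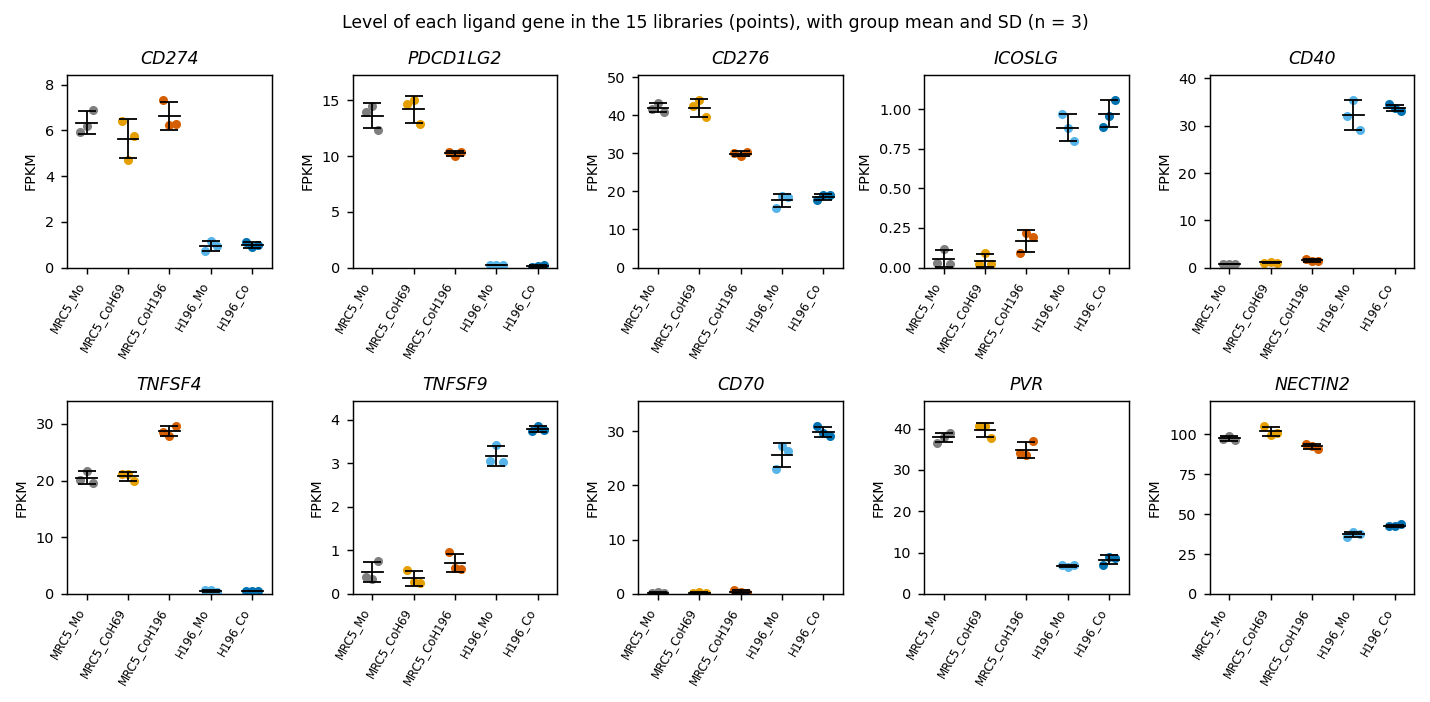
FPKM of the 10 members (panels, each with its own y axis from 0) in the 15 libraries (points) by group, with mean and SD (bars, n = 3). TNFSF4 stands out in MRC5_CoH196 at 28.0 to 29.6 FPKM against 19.6 to 21.8 in the other MRC5 libraries, and CD276 is lower there at 29.2 to 30.3. The H196 groups overlap except in CD70, NECTIN2, PVR and TNFSF9, where H196_Co is higher.

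In tumor cells, the fourth comparison, 0 of 9 members passed both limits in H196_Co against H196_Mo by edgeR, DESeq2 or limma on FPKM, beside 3.86% of 12806 genes in edgeR. NECTIN2, at 1129, 1271 and 1344 counts in H196_Mo and 1410, 1415 and 1445 counts in H196_Co, was higher by 0.26 on the log2 scale (SE 0.072, edgeR adjusted p = 0.0152), under the fold limit, and was the 1 member of 9 past the adjusted p alone, beside 19.8% of genes. That adjusted p lay between 0.0605 and 0.0716 without replicate 3 of H196_Co or without replicate 1 or 3 of H196_Mo. An unadjusted p under 0.05 was reached by 5 members, beside 33.5% of all genes: NECTIN2, CD70 (log2 0.24, adjusted p = 0.0562), TNFSF9 (0.33, adjusted p = 0.0978), PVR (0.20, adjusted p = 0.0863) and ICOSLG (0.29, adjusted p = 0.139). The differences were small but mostly of 1 sign, with 8 of 9 members above 0 and a median log2 fold change of 0.24, against -0.0015 and 49.7% above 0 over all genes.

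CD70, the CD27 ligand, was at 302, 354 and 358 counts in H196_Mo and 367, 378 and 396 counts in H196_Co, and CD40 at 664, 666 and 811 against 735, 746 and 770 counts. In 6 of 9 members every H196_Co library was above every H196_Mo library by scaled counts, where 20.2% of genes were so placed. CD40 and CD276, whose ranges overlapped, were not among them. CD274 and ICOSLG were among them, but by FPKM their H196 groups overlapped, so that count depends on the scaling. TNFSF4 was the 1 member below 0 (log2 -0.22, SE 0.19, edgeR adjusted p = 0.440), at 39 to 61 counts over the 6 libraries. CD274 stood at 23 to 26 counts in H196_Mo and 26 to 33 in H196_Co, and PDCD1LG2 at 7 to 10 and 3 to 10 counts, too low to test. MRC5 marker RNA in H196_Co, over 187 genes chosen in the same way, was 0.0509% to 0.0575% of its MRC5_CoH196 level, against 0.0427% to 0.0454% in H196_Mo.

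Whether the partners responded unequally to each other was tested as the difference between the MRC5 and the H196 response. The response of MRC5 cells was the more positive for 3 of 10 members, TNFSF4, CD40 and ICOSLG, beside 12.1% of 13585 genes in that direction and 24.7% in either. The log2 difference was 0.85 for TNFSF4 (SE 0.18, edgeR adjusted p = 2.13e-04), 1.11 for CD40 (SE 0.23, adjusted p = 2.02e-04) and 1.16 for ICOSLG (SE 0.48, adjusted p = 0.0449). The ICOSLG value lost its call without any of 8 of the 12 libraries in turn and on FPKM. CD276 (-0.45, adjusted p = 1.49e-04) and PVR (-0.47, adjusted p = 6.24e-05) differed in the other direction under the fold limit, which made 5 of 10 members by the adjusted p alone, beside 51.2% of genes.

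The order of groups by FPKM was largely set by the line. MRC5 groups held the top 3 places for CD274, PDCD1LG2, CD276, TNFSF4, PVR and NECTIN2, and H196 groups the top 2 places for CD40, CD70, TNFSF9 and ICOSLG. Most genes separated these lines, with 61.7% of 13585 differing past both limits between MRC5_Mo and H196_Mo. Within MRC5 cells, MRC5_Mo and MRC5_CoH69 were neighbors that overlapped in CD276, TNFSF4, PDCD1LG2, PVR and CD274, whereas CD40 separated all 3 groups, from 0.73 ± 0.021 through 1.08 ± 0.082 to 1.56 ± 0.29 FPKM (SD, n = 3 each). NECTIN2 separated all 5 groups by FPKM, highest in MRC5_CoH69, though by CPM its MRC5 groups took another order. The H196 groups overlapped in CD274, PDCD1LG2, CD276, ICOSLG, CD40 and TNFSF4.

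Genes whose log2 CPM followed a member most closely over the 9 MRC5 libraries are given as a description, since these libraries share 3 groups. TNFSF4 was followed most closely by PLXND1 (r = 0.997), CUX1 (0.997) and RAD23B (0.996), and CD40 by AEBP1 (0.996), NPRL2 (0.983) and SEL1L3 (0.981). CD276 was nearest to PLEKHG2 (r = 0.990), PVR to TMEM51 (0.987), NECTIN2 to SSH3 (0.982), PDCD1LG2 to NAA60 (0.969), CD274 to AP1M1 (0.967) and TNFSF9 to TOLLIP (0.953).

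The wider families were counted from lists chosen with earlier results known. Over all genes tested, 17.2% rose and 31.9% changed in either direction in MRC5_CoH196 against MRC5_Mo. In MRC5_CoH69 0.554% of genes changed, and in H196_Co 3.86%. At an unadjusted p under 0.05 in edgeR the shares were 76.1%, 20.1% and 33.5%, in the same order. Of 43 other checkpoint and co-stimulatory ligands, 24 were tested in MRC5 cells, and in MRC5_CoH196 against MRC5_Mo 5 rose, 4 fell and 15 did not pass, with a median log2 fold change of -0.066. The largest rises at 1 CPM or more were SEMA4A (1.25), CADM1, an adhesion molecule (0.97), and HLA-E, the ligand of the NKG2A receptor (0.84). VCAM1, an adhesion ligand of the integrin VLA-4 (-2.37), NCR3LG1, a ligand of the NK receptor NKp30 (-1.72), and CD58, the ligand of CD2 (-1.07), fell. In MRC5_CoH69 1 of the 24 rose, VSIR (VISTA, log2 0.92), and DESeq2 and limma on FPKM also called 1 each. In H196_Co 1 of 20 rose by edgeR, VSIR (1.09), at a mean of 0.784 CPM, while DESeq2 and limma on FPKM called 0. VSIR had 6 to 13 counts in H196_Mo and 15 to 20 in H196_Co. VSIR was also higher in MRC5_CoH196 against MRC5_Mo (0.54, edgeR adjusted p = 2.13e-06), under the fold limit. Of 15 receptors on the T cell side, 1 was tested in MRC5 cells and 4 in H196 cells, with 0 called by edgeR, DESeq2 or limma on FPKM against mono-culture. At an unadjusted p under 0.05 there were 0 in MRC5 cells and 2 in H196_Co.

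Of 27 tested regulators of CD274, 5 rose and 2 fell in MRC5_CoH196 against MRC5_Mo, beside 31.9% of all genes changed in either direction. ZDHHC9, a palmitoyltransferase (log2 1.13), MYC (0.9995) and IRF2 (0.99) rose most, while SOCS1, an inhibitor of interferon signaling (-2.33), and NFKB1 (-1.16) fell. In H196_Co 2 of 27 rose by edgeR, EPAS1 (0.97, at a mean of 1.43 CPM) and MYC (0.62), beside 3.86% of all genes changed. DESeq2 called 1 of these regulators there and limma on FPKM 0. In MRC5_CoH69 0 of 27 were called by edgeR, DESeq2 or limma, with 12 at an unadjusted p under 0.05, beside 20.1% of all genes. Of 14 genes of CD40 and NF-kB signaling, 5 rose and 3 fell in MRC5_CoH196, where 17.2% of all genes rose and 31.9% changed. TNFAIP3 and BIRC3, targets and regulators of NF-kB, rose by 1.57 and 1.15 on the log2 scale and TRAF6, a signaling adaptor of CD40, by 0.72. TRAF1 (-1.17), CHUK (-0.75) and RELB (-0.64), parts of the same signaling, fell. By edgeR, DESeq2 and limma 0 of the 14 were called in H196_Co or in MRC5_CoH69. An unadjusted p under 0.05 was reached by 5 and 4 of them there, beside 33.5% and 20.1% of all genes.

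Genes listed as neighbors of CD274 with PDCD1LG2, TNFSF9 with CD70 and PVR with NECTIN2 moved both ways in MRC5_CoH196 against MRC5_Mo. Of 16 tested, 3 rose and 4 fell, where 17.2% of all genes rose and 31.9% changed. The list held no neighbor of TNFSF4, CD40, ICOSLG or CD276. APOE (log2 1.39), RIC1 (1.04) and TRIP10 (0.96) rose, and TOMM40 (-1.18), RCL1 (-1.13) and ZNF180 (-0.94) fell most. In MRC5_CoH69 0 of the 16 were called by edgeR, DESeq2 or limma, with 4 at an unadjusted p under 0.05, beside 20.1% of all genes. In H196_Co 2 of 19 rose by edgeR, DENND1C (0.91) and SH2D3A (0.72), beside 3.86% of all genes changed. DESeq2 called 1 of these neighbors there and limma on FPKM 0. Fibroblast markers also changed in MRC5_CoH196, where 1 of 11 rose, PDGFRB (0.67), and 2 fell, COL1A1 (-1.57) and COL3A1 (-2.09), and of 3 tested epithelial markers 2 rose, KRT19 (0.99) and KRT8 (0.83), while the most abundant, KRT18, was lower under the fold limit (-0.25). In MRC5_CoH69 0 of 11 fibroblast markers were called by edgeR, DESeq2 or limma, with 8 at an unadjusted p under 0.05, beside 20.1% of genes. The 4 non-neuroendocrine markers also gave 0 calls by these tools. At an unadjusted p under 0.05 there were 4 in MRC5_CoH196, 1 in MRC5_CoH69 and 3 in H196_Co, beside 76.1%, 20.1% and 33.5% of genes.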

How the data were processed

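Total RNA of 15 libraries was enriched with oligo(dT) beads and sequenced on BGISEQ-500. The authors filtered reads with SOAPnuke, and the submitters' processing notes name HISAT2 2.1.0, Bowtie2 2.3.4.3, RSEM 1.3.1 and GRCh38.p13. The deposited expected counts are the authors' estimated reads per gene without normalization, whole in 92.1% (H196) and 93.7% (MRC5) of values within 1e-09. The deposited FPKM values were scaled by the authors by length and depth. Not used were 30 per-library columns of TPM and normalized counts, the authors' own comparisons (log2 fold changes, p and q values) and a second copy of each table.

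After rounding, the expected counts were fitted by edgeR 4.0.16 under R 4.3.3 (filterByExpr, TMM factors of 0.916 to 1.05, two-sided quasi-likelihood tests, Benjamini-Hochberg over all genes tested), with the 9 MRC5 libraries, the 6 H196 libraries or, for contrasts between lines, all 15 in 1 model. The SE is the log2 fold change over the square root of F. A gene was called at adjusted p under 0.05 and absolute log2 fold change above 0.58. DESeq2 1.42.0, limma 3.58.1 on log2(FPKM + 1 or 0.1), other filters and left-out libraries were alternatives, and the fits were tested on simulated data. An exact permutation test of 3 against 3 cannot go below p = 0.1, so single values were described. Named were all members, up to 3 called list genes with the largest rise and fall at 1 CPM or more, overlapping neighbors, and genes most alike at 10 CPM or more. The gene most alike to ICOSLG is not reported here. VSIR in H196_Co and in MRC5_CoH196, KRT19, KRT8, KRT18, COL1A1, COL1A2, COL3A1, PDGFRB and LOC102723996 were named after their values were seen. Members and lists were chosen with earlier results of these data known. Libraries of a group differed by more than sampling noise (chi-square per gene 1.88 to 10.8), so none was counted as a duplicate. Intervals of counting error were not computed, and 3 counts, or 0.156 to 0.187 CPM, are what a count of 0 allows.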

Additional observations from a re-analysis of the deposited data

Results flagged for a closer look

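A total of 5 members responded differently in the 2 partners of the same co-culture, by a test of the difference between the change in MRC5_CoH196 against MRC5_Mo and that in H196_Co against H196_Mo (edgeR adjusted p under 0.05 for the difference). Of 13585 genes tested, 51.2% passed the same limit, so 5 of 10 is near the share of genes at large. TNFSF4 had a log2 difference of 0.85, rising in MRC5 cells (0.66) and standing at -0.22 in H196 cells. CD40 had a log2 difference of 1.11 and ICOSLG of 1.16, with changes of 1.28 and 1.48 in MRC5 cells and 0.14 and 0.29 in H196 cells. CD276 (-0.45) and PVR (-0.47) differed in the other direction, at -0.32 and -0.24 in MRC5 cells and 0.11 and 0.20 in H196 cells. No cause was tested, and the H196 marker RNA in MRC5_CoH196 libraries, given above, moves with the same contrast.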

How the results depend on the processing

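On log2(FPKM + 1), members called came to 0 in MRC5_CoH196 against MRC5_Mo, 0 against MRC5_CoH69 and 0 for the difference of responses, and genes called to 18 in MRC5_CoH69 and 195 in H196_Co. There NECTIN2 turned to -0.074 against MRC5_Mo and -0.14 against MRC5_CoH69, CD276 to -0.00093 in MRC5_CoH69, and the difference of responses to 0.014 for CD274, -0.29 for PDCD1LG2, -0.0050 for TNFSF9 and -0.026 for CD70. On log2(FPKM + 0.1), 2 members, CD40 and ICOSLG, were called in MRC5_CoH196 against MRC5_Mo. On that scale 2 members were called between co-cultures and 2 for the difference of responses. NECTIN2 was -0.075 and -0.14 there, CD276 -0.00097 and the PDCD1LG2 difference -0.030. The median of all genes on FPKM lay at -0.13 to -0.18 in MRC5_CoH196 and at -0.34 to -0.44 between the lines, and the cause of these shifts was not tested. DESeq2 called 40 genes in MRC5_CoH69. A minimum of 10 counts in every library left 2 members called in MRC5_CoH196 against MRC5_Mo and 2 between co-cultures. It left 6 between the lines and 2 for the difference of responses, fewer being tested.

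Without a fold limit, members called were 8 in MRC5_CoH196 against MRC5_Mo, 8 between co-cultures, 1 in H196_Co and 5 for the difference, and genes called were 9522 in MRC5_CoH196 against MRC5_Mo, 859 in MRC5_CoH69, 9269 between co-cultures, 2538 in H196_Co and 6958 for the difference. With 1 library left out, 3 to 4 members were called in MRC5_CoH196 against MRC5_Mo, 2 to 5 between co-cultures (2 without replicate 1 of MRC5_CoH196), 0 in MRC5_CoH69 and H196_Co, 10 between the lines and 2 to 3 for the difference. In MRC5_CoH69 the left-out ranges crossed 0 for CD276 (-0.024 to 0.066), ICOSLG (-1.44 to 0.51) and TNFSF4 (-0.0022 to 0.070), as did the differences of CD70 (-0.0083 to 1.16) and PDCD1LG2 (-0.22 to 0.60). The CD70 difference passed both limits without replicate 3 of MRC5_CoH196 (1.16, edgeR adjusted p = 0.0243). That replicate had the least CD70 and the least H196 marker RNA of its group. CD70 was too low to test within MRC5 cells and entered the joint fit through H196 cells, so no weight is put on this call. With its near-identical locus, ICOSLG was 0.067 in MRC5_CoH69.

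Replicate numbers showed no shared effect: same-numbered libraries correlated at -0.15 to 0.081 after removing group means, and 0 of 12 pairs exceeded 0.1. Libraries with different numbers correlated at -0.14 to 0.20. Whether cultures were set up as numbered sets is not stated, and these values cannot decide it. A fit with the replicate number as a block called 3, 0, 4, 0, 10 and 3 members, in the order of the comparisons, as without it. NECTIN2 ranked 3 MRC5 groups differently by FPKM and CPM. Low counts limit ICOSLG, CD70, TNFSF9 and CD40 in MRC5 cells. Over all alternatives, 844 member values stayed on the same side, 25 lost and 3 gained a call, and 17 reversed.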
